A study of Mus musculus with 2 samples.

Results

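The phagocyte NADPH oxidase was followed through 4 of its subunit genes, Cybb, Cyba, Ncf1 and Ncf4, out of 21938 protein-coding genes of GENCODE M21. They were chosen by name, as subunits of the enzyme, and a peak was assigned to a gene when it lay within 10 kb of any annotated transcript start. The mark was trimethylation of histone H3 at lysine 4 (H3K4me3), mapped by chromatin immunoprecipitation and sequencing in macrophages grown from the bone marrow of C57BL/6J mice. There was 1 group, without stimulation, with 2 biological replicates that carry the same donor entry, each started from 10 ng of DNA. The labels give neither sex nor age, and do not say whether the replicates came from separate animals, so the spread between them may be technical. No genotype, treatment or time was varied.

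The oxidase passes electrons from NADPH in the cytosol to oxygen in the phagosome and so makes superoxide, which phagocytes use against ingested microbes. Cybb encodes the catalytic, haem-binding membrane chain (gp91phox) and Cyba its membrane partner (p22phox), without which the catalytic chain is unstable. Ncf1 encodes the cytosolic organiser (p47phox), which binds the membrane pair after phosphorylation, and Ncf4 encodes a cytosolic subunit (p40phox) that binds a phosphoinositide of the phagosome membrane. Inherited loss of a subunit causes chronic granulomatous disease. H3K4me3 is a mark of active and poised transcript starts, and many of the starts that carry it lie in CpG-rich sequence.

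The 250 bases upstream of 3 of the starts are shown because these sequences differ in base composition while the peaks described below cover all 3 starts. They come from RefSeq (GRCm38.p6) and run 5′ to 3′ on the coding strand, and capitals mark letters that match one of the motifs listed further below. Cybb, Cyba and Ncf1 matched an entry and Ncf4 did not. The Cybb stretch is chrX:9469325-9469574, the Cyba stretch chr8:122432941-122433190 and the Ncf1 stretch chr5:134229626-134229875, all on the minus strand.

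Cybb: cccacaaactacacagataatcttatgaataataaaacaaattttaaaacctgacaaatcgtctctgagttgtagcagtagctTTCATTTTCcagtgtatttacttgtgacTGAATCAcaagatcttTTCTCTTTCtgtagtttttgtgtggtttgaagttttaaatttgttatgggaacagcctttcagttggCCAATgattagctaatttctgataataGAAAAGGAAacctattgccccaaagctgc

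Cyba: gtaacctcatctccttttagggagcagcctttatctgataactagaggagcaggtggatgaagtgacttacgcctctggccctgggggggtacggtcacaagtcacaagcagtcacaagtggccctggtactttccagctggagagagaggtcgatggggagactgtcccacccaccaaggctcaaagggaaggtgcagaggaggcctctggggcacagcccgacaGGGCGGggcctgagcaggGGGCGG

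Ncf1: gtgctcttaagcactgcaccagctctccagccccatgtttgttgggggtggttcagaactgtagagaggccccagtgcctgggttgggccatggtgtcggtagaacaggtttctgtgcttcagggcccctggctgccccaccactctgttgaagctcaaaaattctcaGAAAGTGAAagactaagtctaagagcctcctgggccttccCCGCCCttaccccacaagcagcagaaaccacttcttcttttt

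All 4 subunit genes carried an H3K4me3 peak over the main start in both replicates, against 49.5% of all protein-coding genes with a peak of each replicate within 1000 bp of a start. Both lists that the authors made from the 2 replicates, the pooled and the replicated one, held a peak over all 4 starts as well. Widening the search to 10 kb added 1 peak per list, near Cyba, and 54.4% of protein-coding genes had a peak of each replicate within that distance. With 4 genes, the count is a description of these genes and not a test.

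The membrane pair held the strongest and the weakest peak of the subunits. The authors give each peak a fold, a ratio whose reference is not stated in the lists, which was compared only within a list. At Cyba (ENSMUSG00000006519.11) the promoter peak had a fold of 49.7 in replicate 1 and 19.5 in replicate 2, and 34.8 in the pooled list. At Cybb (ENSMUSG00000015340.10) it had a fold of 18.3 in replicate 1, 6.91 in replicate 2 and 12.2 in the pooled list. Cyba was thus 2.71 times as high as Cybb in replicate 1, 2.82 times in replicate 2 and 2.85 times in the pooled list.

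The cytosolic subunits lay between them. Ncf1 (ENSMUSG00000015950.13) had a fold of 41.8 in replicate 1, 15.5 in replicate 2 and 28.2 in the pooled list. Ncf4 (ENSMUSG00000071715.12) had a fold of 29.0 in replicate 1, 10.7 in replicate 2 and 18.1 in the pooled list. The order from high to low was Cyba, Ncf1, Ncf4 and Cybb in each of the 4 lists, by fold and by −log10 q alike. The replicated list gave the same values as the pooled list at all 4 genes.

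Steps between neighbours in this order were similar from library to library. Cyba stood above Ncf1 by a ratio of 1.19 in replicate 1 and 1.26 in replicate 2, Ncf1 above Ncf4 by 1.45 in both, and Ncf4 above Cybb by 1.58 and 1.55. The −log10 q of the promoter peak was 359 at Cyba, 286 at Ncf1, 174 at Ncf4 and 90.6 at Cybb in replicate 1. In replicate 2 the values in the same gene order were 148, 99.6, 55.1 and 26.6.

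Among all protein-coding genes marked in the same list, the subunits spread over most of the range of fold. Those backgrounds held 11747 genes in replicate 1, with a median highest fold of 37.4, and 10870 genes in replicate 2, with a median of 14.9. Cyba lay at percentile 81.6 in replicate 1 and 77.2 in replicate 2, a mean of 79.4 ± 3.14 (SD, n = 2). Ncf1 lay at 57.3 ± 5.66, Ncf4 at 29.7 ± 3.57 and Cybb at 14.3 ± 4.04 (SD, n = 2 for each). The 2 values of each gene did not overlap those of its neighbours, so these differences in fold percentile were larger than the spread between replicates.

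**Figure D1:**
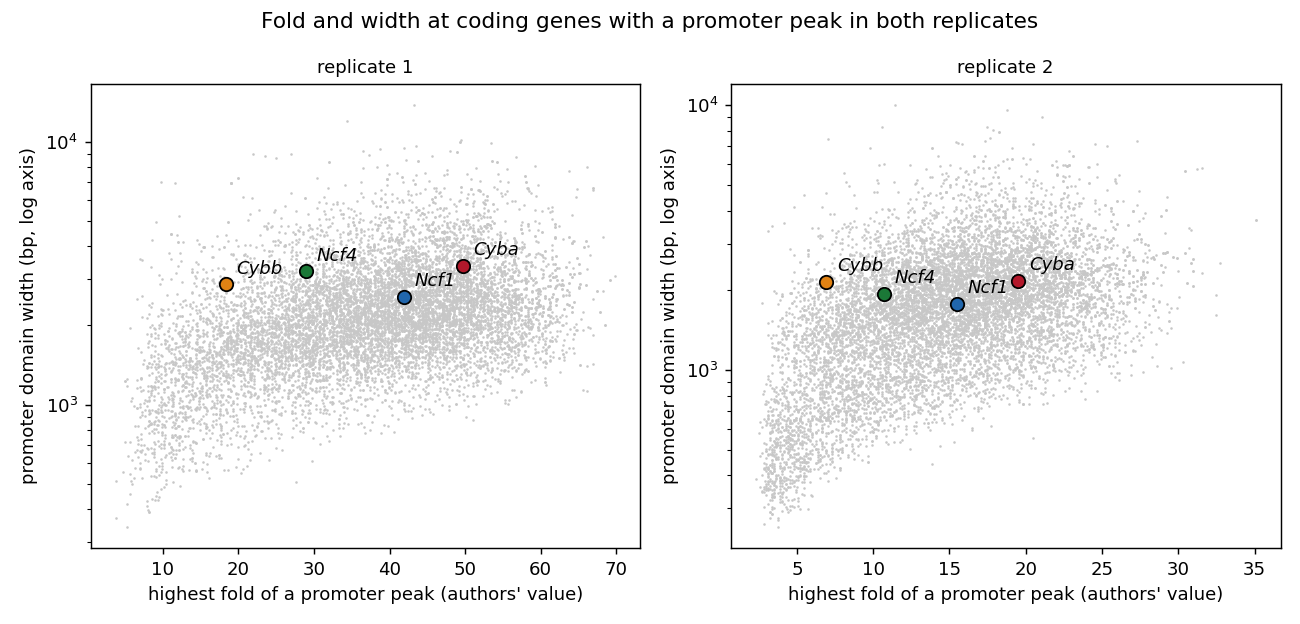
Highest fold of a promoter peak (x axis, the authors' value) against the width of the promoter domain (y axis, bp, log axis) in replicate 1 and replicate 2. Grey points are the 10869 protein-coding genes marked in both replicates and coloured points are the subunit genes. From left to right the order is Cybb, Ncf4, Ncf1 and Cyba in both panels, while the widths differ little.

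Width did not follow fold. Each gene had 1 peak within 1000 bp of its starts in each list, so the width of the domain is that of a single peak. At Cyba the peak measured 3363 bp in replicate 1 and 2177 bp in replicate 2, a mean of 2770 ± 839 bp. Ncf4 had 3210 and 1933 bp (2571.5 ± 903 bp), Cybb 2863 and 2148 bp (2505.5 ± 506 bp) and Ncf1 2574 and 1771 bp (2172.5 ± 568 bp; SD, n = 2 for each). Every value of replicate 1 was above every value of replicate 2, and the ranges of all 4 genes overlapped. Within each of the 4 lists Cyba was the widest and Ncf1 the narrowest, while Cybb and Ncf4 changed places between the replicates. The means with the SD do not separate the genes.

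All 4 mean widths lay above the median of 1946.5 bp over the genes marked in both replicates. Percentiles of width were 77.8 and 69.0 for Cybb, 87.3 and 70.1 for Cyba, 69.8 and 51.4 for Ncf1 and 84.9 and 59.2 for Ncf4, in replicate 1 and replicate 2 respectively. Replicate 1 was wider at each of the 4 genes, by a ratio of 1.33 at Cybb, 1.45 at Ncf1, 1.54 at Cyba and 1.66 at Ncf4. The median ratio over all genes marked in both was 1.19.

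Cybb, the weakest of the 4 by fold, combined a low fold with a wide peak. Genes within 5 percentile points of its fold had a median width of 1573 bp in replicate 1 (1171 genes) and 1073 bp in replicate 2 (1109 genes). Against these Cybb lay at percentile 91.6 and 93.1 of width. By the same measure Ncf4 lay at 89.1 and 71.3, Cyba at 78.4 and 56.6, and Ncf1 at 60.8 and 40.6. Cybb had the highest of these percentiles in both replicates, and Ncf1 the lowest.

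The peaks began close to the start and ran into the gene. At Ncf4, on chromosome 15 (plus strand, start at 78244801), the peak of replicate 1 was chr15:78244685-78247894, reaching 116 bp upstream of the main start and 3093 bp downstream. In replicate 2 it was chr15:78244742-78246674, reaching 59 bp upstream and 1873 bp downstream. The mark at this gene therefore lay almost wholly on the transcribed side.

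Ncf1, on the minus strand of chromosome 5, had chr5:134227330-134229903 in replicate 1, with 278 bp upstream of the start and 2295 bp downstream, and chr5:134227934-134229704 in replicate 2, with 79 and 1691 bp. Cybb, on the minus strand of chromosome X, had chrX:9466891-9469753 in replicate 1, with 429 bp upstream and 2433 bp downstream, and chrX:9467271-9469418 in replicate 2, with 94 and 2053 bp. Cyba, on the minus strand of chromosome 8, had chr8:122430187-122433549 in replicate 1, with 619 bp upstream and 2743 bp downstream, and chr8:122431177-122433353 in replicate 2, with 423 and 1753 bp. Cyba had the longest upstream reach of the 4 in both replicates and Ncf4 the shortest. All coordinates are mm10.

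**Figure D2:**
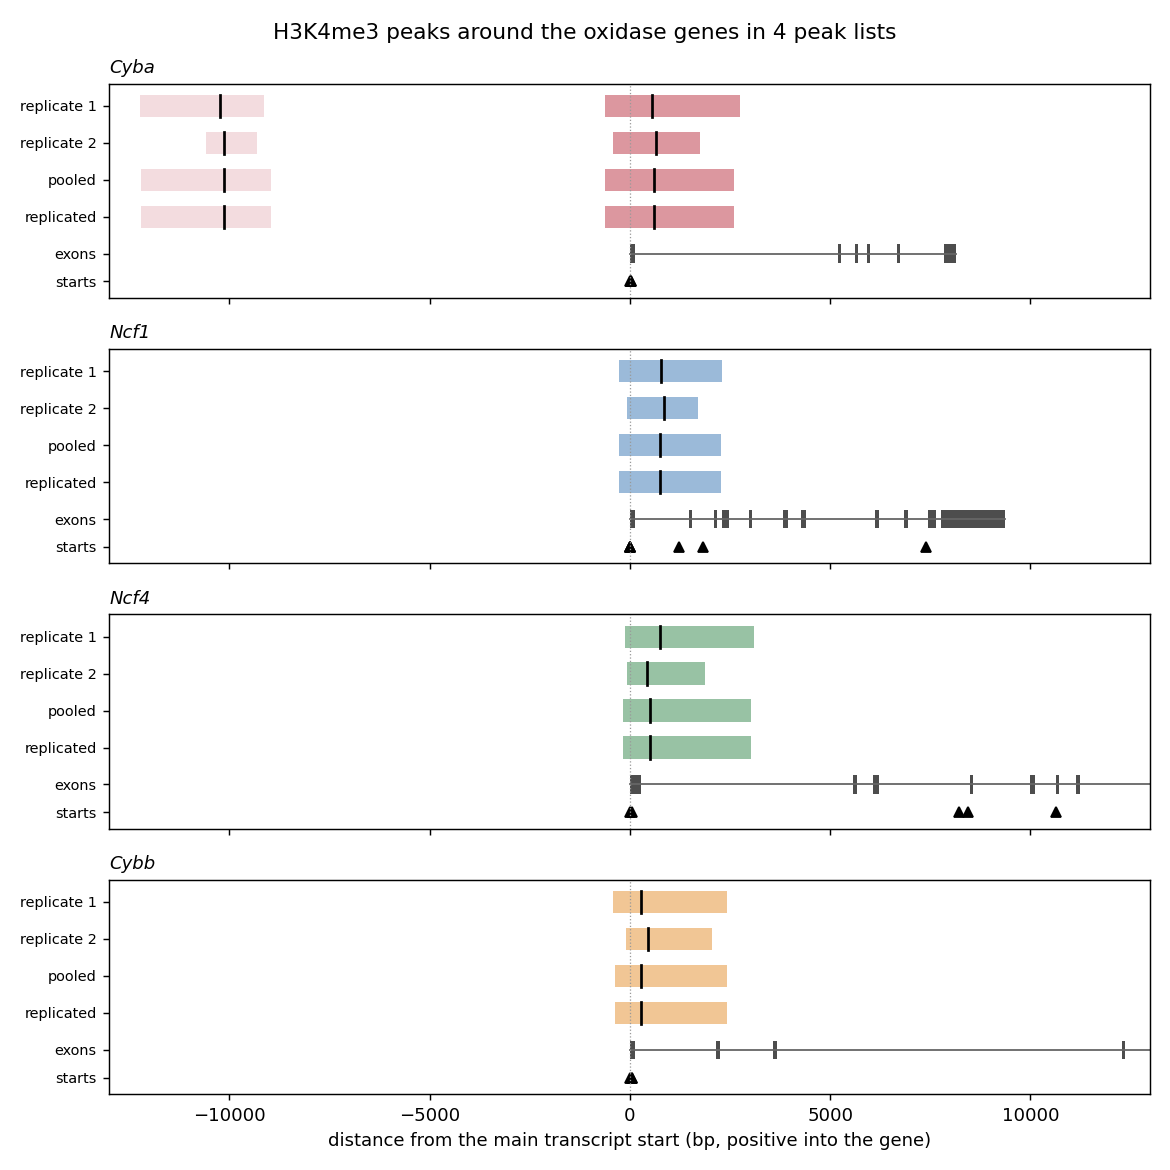
Peaks around the main start of each subunit gene in the 4 peak lists (x axis, bp from the start, positive into the gene). Bars are peaks, the vertical line in each bar is its highest point, the fainter bars near Cyba hold the start of Mvd, boxes are exons of the main transcript and triangles are annotated starts within the plotted range. Each promoter bar reaches farther to the right of the start than to the left.

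Such a lean into the gene was common. In all 4 genes the peak reached farther downstream than upstream in both replicates, and so did 81.9% of the other lone marked genes in replicate 1 and 80.7% in replicate 2. Lone genes are those with no start of another protein-coding gene within 5000 bp of the 5′ end and with 1 peak over that end, 4511 in replicate 1 and 3225 in replicate 2. The direction at the subunits is thus that of most genes.

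The length of the downstream reach stood higher among these genes. The median was 1162 bp in replicate 1 and 953 bp in replicate 2. In replicate 1 the subunits lay at percentile 90.9 (Ncf1), 92.4 (Cybb), 94.6 (Cyba) and 96.5 (Ncf4), and in replicate 2 at 88.7 (Ncf1), 89.8 (Cyba), 91.4 (Ncf4) and 93.4 (Cybb). Upstream reach was not long: the medians were 507 and 372 bp, and Cyba alone of the 4 exceeded them, at percentile 62.6 and 56.0. Ncf4 lay at percentile 15.2 and 13.9 of upstream reach. The reach of the subunits was taken from the main start and that of the other genes from the 5′ end.

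**Figure D3:**
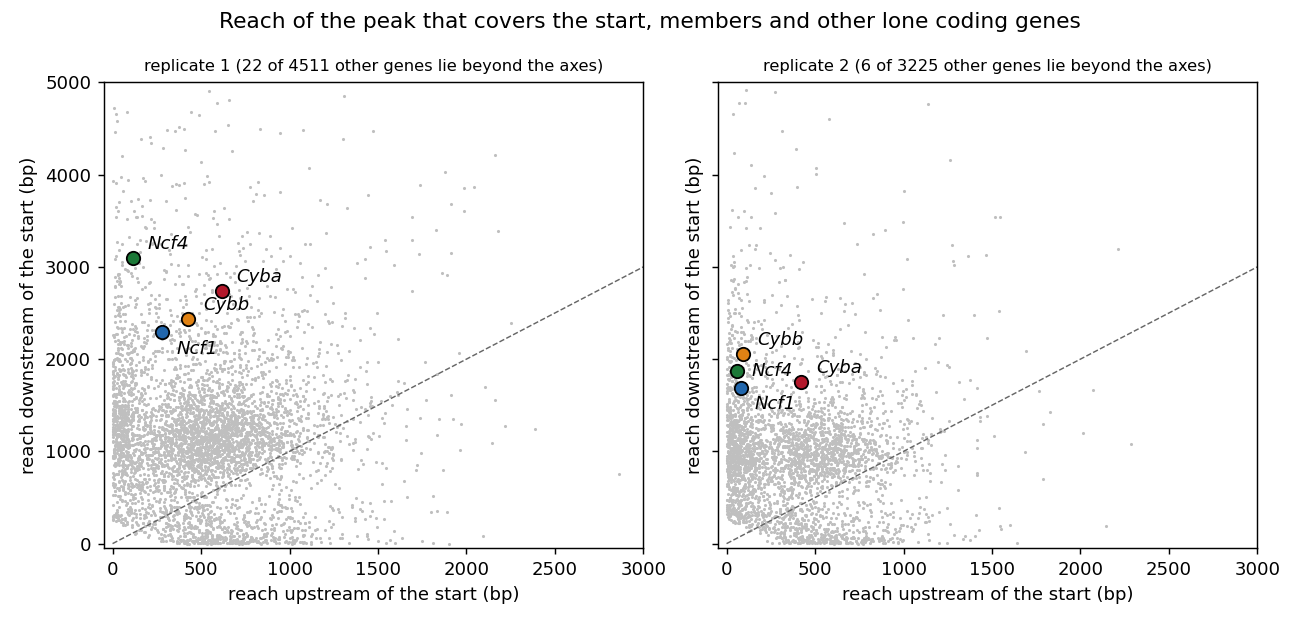
Reach of the peak over the start, upstream (x axis, bp) and downstream (y axis, bp), in replicate 1 and replicate 2. Grey points are lone marked protein-coding genes, the dashed line marks equal reach and coloured points are the subunit genes. Other genes beyond the axes are counted in the panel titles. The 4 genes sit above the dashed line and above the main cloud, between 1691 and 3093 bp downstream.

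The replicates differed more at the downstream edge than at the upstream edge. Replicate 1 reached farther than replicate 2 by 335 bp upstream and 380 bp downstream at Cybb, and by 196 and 990 bp at Cyba. The corresponding values were 199 and 604 bp at Ncf1 and 57 and 1220 bp at Ncf4. The downstream difference was the larger at all 4 genes, against 58.3% of 3222 lone marked genes, whose median differences were 109 bp upstream and 150 bp downstream. Whether the edge moved with library depth was not tested, since read counts were not used here.

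Most of the marked sequence was intronic. Over the 16 promoter peaks (4 genes in 4 lists), introns of the main transcript made up 75% to 90.1% of each peak, its highest point lay in intron 1 in 16 of 16, and the start codon was covered in 16 of 16. The 4 lists rest on the same 2 libraries, so these are 4 genes and not 16 separate cases. The start codons lay 58 to 255 bp downstream of the main start. No share over other marked genes is given, so the counts are a description only. In replicate 1 the highest point lay 268 bp downstream of the start at Cybb, 549 bp at Cyba, 761 bp at Ncf4 and 773 bp at Ncf1. Replicate 2 had it at 460, 649, 430 and 855 bp for the same genes. Ncf4 thus changed order with both Cybb and Cyba between replicates. The point at Ncf1 was the farthest into the gene in both, by a small margin over Ncf4 in replicate 1. The other lone genes had medians of 338 and 282 bp.

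The peak covered different shares of genes of different length. Its span inside the gene was 33.6% of the main transcript at Cyba in replicate 1 and 21.5% in replicate 2. At Ncf1 it was 24.5% and 18.1%, at Ncf4 17.4% and 10.5%, and at Cybb 7.14% and 6.03%. In replicate 1 the peak touched 3 of 11 exons at Ncf1, 2 of 13 at Cybb, 1 of 6 at Cyba and 1 of 10 at Ncf4.

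Marking was limited to 1 region of each gene although the annotation holds several starts. Of 21 annotated transcripts of the 4 genes, 14 started within 1000 bp of a peak of each replicate. No share over the transcripts of other genes is given, here or for the retained introns below. Whether such counts are usual for genes with several starts was not examined. Cybb-205, a coding transcript that begins 18447 bp upstream of the main Cybb start, lay 18018 bp from the nearest peak of replicate 1 and 18353 bp from that of replicate 2. Its start is the 5′ end of the annotated gene, so a count on that end alone left Cybb unmarked and 3 of 4 subunits marked.

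Of the 9 transcripts annotated as retained introns, 3 started within 1000 bp of a peak of each replicate, namely Cybb-202 beside the main start and Ncf1-203 and Ncf1-204 within the gene. Ncf1-204 began 1226 bp downstream of the main Ncf1 start, under the peak in both replicates. Ncf1-203 began 1815 bp downstream, under the peak of replicate 1 and 124 bp beyond that of replicate 2. The 4 internal starts of Ncf4 lay between 5138 and 12984 bp from the nearest peak in replicate 1.

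The additional peak near Cyba held the start of another gene. It began 9134 bp upstream of the Cyba start in replicate 1 and 9301 bp in replicate 2, and covered the start of Mvd, which encodes an enzyme of cholesterol synthesis and lies 10466 bp away. Its fold was 56.0 in replicate 1 and 27.0 in replicate 2, above that of the Cyba promoter peak in both. No other peak lay within 10 kb of a start of Cybb, Ncf1 or Ncf4. Gtf2ird2, a transcription factor gene, was the only protein-coding gene with a start that close to any of these starts, 8112 bp from an internal start of Ncf1 and 15515 bp from the main one.

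The subunit genes differed in the CpG content of the starts. The CpG observed/expected ratio over 1000 bp on either side of the main start was 0.119 at Ncf1, 0.133 at Cybb, 0.152 at Ncf4 and 0.396 at Cyba. Ncf1, Cybb and Ncf4 fell in the lowest tertile of all protein-coding genes, of which 12.1% were marked in both replicates. Cyba fell in the middle tertile, of which 56.1% were marked. The ratio of the other genes was taken at the 5′ end of the gene, whereas marking counted a peak at any start. A marked gene of the lowest tertile can therefore carry its peak at another start with a different ratio. These shares and percentiles thus do not describe CpG-poor starts that are themselves marked. Among the genes marked in both replicates the ratios of Ncf1, Cybb and Ncf4 lay at percentile 0.851, 1.25 and 1.98, and that of Cyba at 14.3.

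Low CpG content had different base composition behind it. GC content around the start was 34.7% at Cybb, which had 8 CpG pairs in the window. It was 54.0% at Ncf1 with 17 pairs, 55.4% at Ncf4 with 23 pairs and 60.3% at Cyba with 72 pairs. Cybb was thus AT-rich, whereas Ncf1 and Ncf4 had few CpG pairs in GC-richer sequence. In the 250 bases printed above, Cybb has 1 CpG, Ncf1 has 2 and Cyba has 6.

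**Figure D4:**
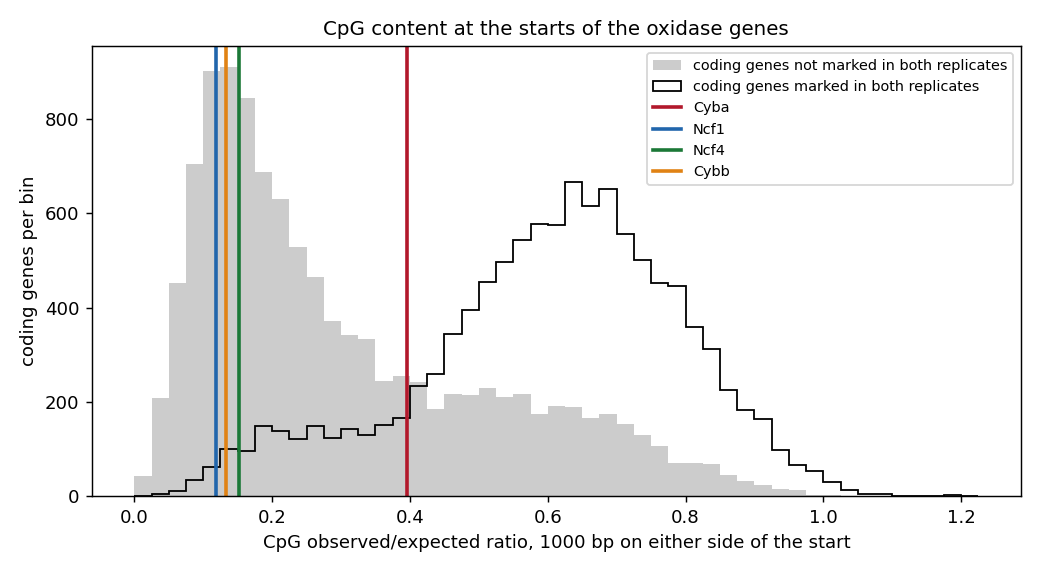
CpG observed/expected ratio over 1000 bp on either side of the start (x axis) and number of protein-coding genes per bin (y axis), for genes marked in both replicates (outline) and the rest (grey). The ratio of other genes is that at the 5′ end, and marking counts a peak at any start. Vertical lines are the subunit genes, at the main start. Ncf1, Cybb and Ncf4 stand between 0.119 and 0.152, where most genes are unmarked, and Cyba stands at 0.396.

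Compared with the 884 marked genes of the lowest CpG tertile, the 3 CpG-poor subunits still differed in fold. That set was formed by the ratio at the 5′ end, so some of its peaks may lie at other starts. Ncf1 lay at percentile 71.7 of that set in replicate 1 and 67.7 in replicate 2. Ncf4 lay at 44.9 and 44.1, and Cybb at 23.1 and 22.8. The median fold of the set was 31.6 in replicate 1 and 11.6 in replicate 2. The 3 subunits were thus spread over the fold range of this set, in the same order in both replicates.

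Motif letters also differed between the starts. The 300 bases from 250 before to 50 after each RefSeq start were searched on both strands for 7 motifs. The ETS motif bound by PU.1 was searched in 1 form only, GAGGAAG. The TATA box was written TATAAA and the motif of C/EBP factors was written TTGCNNAA. The CCAAT box was searched by its name, the AP-1 motif was written TGANTCA, the IRF type GAAANNGAA and the SP family motif GGGCGG. None of the matches given here overlap. Cybb had 3 IRF-type matches, at −167 to −159, −123 to −115 and −29 to −21 from the start, an AP-1 match at −139 to −133 and a CCAAT match at −56 to −52. Ncf1 had 1 IRF-type match at −82 to −74 and 1 SP match at −42 to −37. Cyba had 2 SP matches, at −24 to −19 and −6 to −1, counted from a RefSeq start 10 bp upstream of the GENCODE one.

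Taken singly, these letters were not rare. At least 1 IRF-type match occurred in 8.56% of 32851 RefSeq promoters of the same length, an AP-1 match in 7.81%, a CCAAT box in 37.4% and an SP match in 35.7%. How many promoters hold 3 IRF-type matches, or the combination seen at Cybb, was not counted. The PU.1-type letters GAGGAAG and the TATA box, each present in 13.6% of promoters, had no match in these 3 windows. Nor had the C/EBP motif, present in 10.8%. Other forms of an ETS motif were not searched. A match shows only that the letters are there, and no match shows only that they are not in this window.

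Partners of the oxidase were marked as well, and its relatives were mostly not. A list of 36 genes around the oxidase was divided by role, and 25 of them were marked in both replicates, 1 was marked in replicate 1 alone and 10 in neither. The median width of the 25 was 2455.5 bp. Over all protein-coding genes 49.5% were marked, a share that does not allow for CpG content. In the lowest, middle and highest CpG tertile 12.1%, 56.1% and 80.5% of genes were marked. The list was not matched for CpG content, so these counts are a description only.

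The small GTPase Rac binds the assembled enzyme and is needed for its activity. All 7 genes of Rac and its regulators were marked in both replicates. Arhgdib, which encodes an inhibitor that holds Rac in the cytosol, had the widest domain of this group at 3941 ± 461 bp, and Rac2, the isoform of blood cells, the narrowest at 1808.5 ± 317 bp (SD, n = 2 for each). Rac2 had a fold of 59.8 in replicate 1 and 20.1 in replicate 2, at percentile 97.2 and 80.3. Rac1, the widely used isoform, had folds of 45.0 and 14.2, at percentile 69.9 and 46.2, and a domain of 2817 ± 160 bp (SD, n = 2). The CpG ratio was 0.163 at Rac2 and 0.807 at Rac1.

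Genes of assembly, kinases and charge compensation were marked in 8 of 8 cases. Prkcd, a protein kinase C gene whose product phosphorylates the organiser subunit, had the widest mean domain, 2672.5 ± 883 bp. Prkcb, another protein kinase C gene, had the narrowest mean, 947.5 ± 38.9 bp (SD, n = 2 for each). Neither rank held in replicate 2, where Syk (2071 bp) was wider than Prkcd (2048 bp) and Pak1 (735 bp) narrower than Prkcb (920 bp). Their folds stood far apart in both replicates, 62.4 against 14.9 in replicate 1 and 25.8 against 5.87 in replicate 2. Cybc1, which encodes a chaperone of the membrane pair, had folds of 39.2 and 14.5, and Hvcn1, the proton channel gene that balances the charge moved by the oxidase, had 26.5 and 9.66.

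Of 9 genes of other NADPH oxidases and their partners, 1 was marked. The catalytic genes Nox1, Nox3, Nox4, Duox1 and Duox2 had no peak within 1000 bp of a start in either replicate, nor had Noxa1, Duoxa1 and Duoxa2, which encode an activator and maturation factors. The nearest peak of replicate 1 lay between 33122 bp (Duox1) and 1030290 bp (Nox4) from a start. Noxo1, an organiser gene, had a domain of 1655 ± 117 bp (SD, n = 2), with the start of Gfer in its window, so the peak cannot be assigned to 1 of the 2 genes.

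Enzymes that make or remove related oxidants were marked in 6 of 8 cases. Prdx1, a peroxiredoxin gene, had the widest domain at 3884 ± 1068 bp and Sod2, the mitochondrial superoxide dismutase gene, the narrowest at 1193 ± 157 bp (SD, n = 2 for each). Nos2, the inducible nitric oxide synthase gene, had its nearest peak 57059 bp away in replicate 1, and Mpo, the myeloperoxidase gene of neutrophil granules, 14050 bp away. Of 4 genes of NADPH supply 3 were marked in both replicates, with mean domains from 2944.5 ± 193 bp at Pgd to 3552.5 ± 639 bp at G6pdx (SD, n = 2 for each). In replicate 2 Idh1 (3112 bp) was wider than G6pdx (3101 bp). The G6pdx window also holds the start of Ikbkg, and the Idh1 window that of Pikfyve. Me1, the malic enzyme gene, had a peak of 343 bp and fold 5.23 in replicate 1 only.

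**Figure D5:**
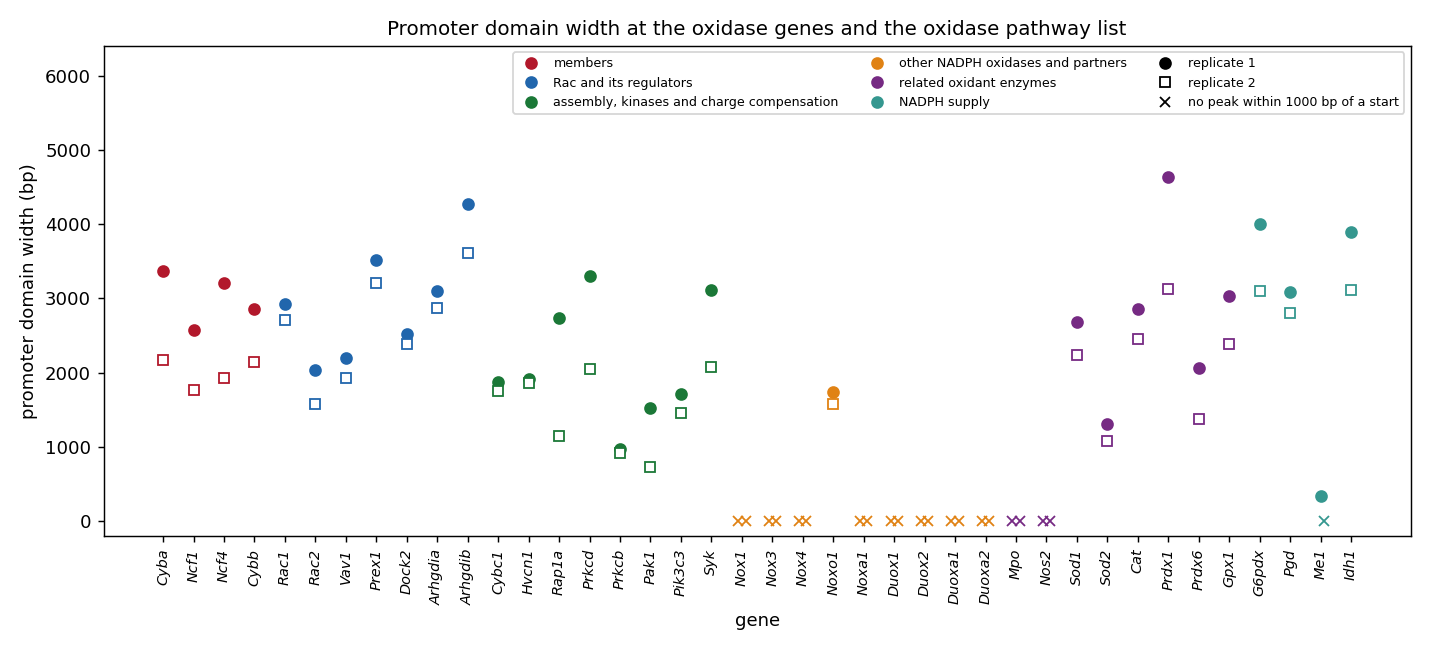
Promoter domain width (y axis, bp) at each subunit gene and each gene of the pathway list, coloured by role. Filled circles are replicate 1, open squares replicate 2, and crosses at 0 mark genes with no peak within 1000 bp of a start. Crosses gather at the other NADPH oxidases, where 8 of 9 genes have them in both replicates.

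The labelled cell type was compared with marker genes, since neutrophils and B cells also make the oxidase. Whether each marker is confined to its cell type was not examined, and some of the macrophage list may be shared with other myeloid cells. Of 10 macrophage markers 10 were marked in both replicates, among them Adgre1. Of 10 neutrophil markers none was, and Prtn3 had a peak in replicate 1 only, with the start of Plppr3 in its window. None of 5 B cell markers was marked in both, with Cd79b marked in replicate 1 only, and none of 5 fibroblast markers was. Of 5 T cell markers 1 was marked, Cd3d, with folds of 15.9 and 3.52. A peak list does not show how many cells carried a mark, so a share of other cells cannot be told from these counts.

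For each subunit, the protein-coding genes most like it were sought by the percentiles of width and fold in both replicates, taking the largest of the 4 differences as the measure over 2 libraries. Ern1 and Elmsan1 were the nearest to Ncf4, with differences of at most 1.53 and 2.52 percentile points. Birc3 and Srgn were nearest to Cybb (3.43 and 3.86), and Wls and Utrn to Cyba (5.16 and 5.32). For Ncf1, H2afx had a difference of at most 5.28. Srgn had a fold of 16.6 and a width of 3008 bp in replicate 1, beside 18.3 and 2863 bp at Cybb.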

How the data were processed

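H3K4me3 ChIP-seq peak lists of 2 replicates of 1 group were used, with 2 lists of the whole series. Per the deposited provenance texts, the authors made 1 pseudoreplicated list from each replicate, and from both replicates together 1 pooled pseudoreplicated list and 1 replicated list, all on mm10. Per the same deposited texts and the layout, a peak has the authors' fold, which is a ratio, a −log10 p-value and a −log10 q-value. Which aligner, peak caller, version and threshold were applied is not given in the sources used here. The lists hold no read numbers, so the depth behind a peak is unknown and no interval is given for it.

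Peaks were placed against GENCODE M21 on 21 chromosomes, and the sequence came from GRCm38.p6, the same assembly as mm10: of all peaks, 0 ended past the length of the chromosome. A gene was marked when a peak overlapped the 1000 bp on either side of any transcript start by at least 1 bp, and peaks within 1000 bp were joined into a domain. Percentiles are mid-ranks among protein-coding genes marked in the same list. The CpG ratio of other genes was taken at the 5′ end of the gene, and that of the subunits at the start of the first-numbered transcript, called the main start. The work used Python 3.11.15 and numpy 2.4.6, and the overlap and joining routines were tested on simulated data.

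Named genes were the 4 subunits, the pathway genes with the widest and narrowest domains of each group, those not marked in both replicates, neighbours within 10 kb and the 2 most like genes, of which 1 is not reported here. Rac1, Cybc1, Hvcn1, Syk, Pak1, Idh1 and Mvd, the fold values of Rac2, Prkcd and Prkcb, and the marker genes named singly were added after values were seen. The members and lists were chosen with earlier results of these data known. No test was made: there is 1 group, and genes are not replicates.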

Additional observations from a re-analysis of the deposited data

How the results depend on the processing

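The fold percentile of Ncf4 was 29.7 ± 3.57 (SD, n = 2) over the replicates and 25.6 in the authors' replicated list, a shift larger than that SD. In the pooled list it was 27.6 at the same fold of 18.1. Those 2 lists differ here only in the background, 11564 marked genes in the pooled and 11251 in the replicated list. The cause of the rest of the shift was not tested. With only the 5′ end of each gene as a start, 3 of 4 subunits and 22 of 36 pathway genes were marked, the subunit lost being Cybb. The count of subunits was 4 with windows of 500, 2500 and 10000 bp, with a −log10 q of at least 5, with the 15000 peaks of highest −log10 p, with 200 bp of the window covered and without either replicate. Leaving out a replicate cannot move a mean of 2 by as much as 1 SD, and joining cannot change a width where a gene has 1 promoter peak, so neither shows that a width or percentile is stable. The percentile backgrounds differ between lists, since each list marks its own genes. With 2 libraries an SD is itself poorly known. No paired analysis was possible because there is 1 group.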
